A study of Mus musculus with 10 samples.

Results

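The arrays were chosen by the level of one transcript, Ttr, which encodes transthyretin, the main protein that the choroid plexus secretes into the cerebrospinal fluid. Of the 10 hippocampus arrays of the series, 4 had log2 Ttr values of 12.02 or more and are called choroid-rich, and the other 6, with 10.23 or less, are called choroid-poor. Each side of the split held both genotypes, with 2 Tg(Dyrk1a) and 2 wild type arrays among the choroid-rich and 3 of each among the choroid-poor. Because the split rests on a measured value, these are sets of arrays and not treatment groups, and what follows describes which other transcripts went with Ttr from one dissected hippocampus to the next.

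The mice were males of 16 weeks, kept in the same animal facility, on a background that the labels give as C57BL/6N and the study's methods as C57BL/6J. The Tg(Dyrk1a) animals carried an additional copy of Dyrk1a, a kinase gene in the region homologous to human chromosome 21, and the wild type animals were their littermates, with 5 animals per genotype. Total RNA came from the right and left hippocampus of 1 animal per array, and was hybridised to whole-transcript expression arrays. The labels name no drug or other treatment, and the Tg(Dyrk1a) animals were of 1 transgenic line.

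The choroid plexus is an epithelial sheet that hangs in the brain ventricles, and its cells make the cerebrospinal fluid by moving ions and water from the blood. In the lateral ventricle it is attached along the edge of the hippocampus, so that a hippocampal dissection can take more or less of it. Its epithelial cells are joined by tight junctions, secrete carrier proteins and growth factors, depend on the transcription factor OTX2, and bear cilia, and below them lies a stroma with fibroblasts, leaky vessels and macrophages. In bulk RNA, a larger number of choroid plexus cells in the sample and more RNA of these genes per cell cannot be told apart.

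Ttr had a log2 value of 13.19 in Tg(Dyrk1a) replicate 2, 13.02 in Tg(Dyrk1a) replicate 4, 13.24 in wild type replicate 5 and 12.02 in wild type replicate 4. Among the choroid-poor arrays the value was 9.02, 7.97 and 9.58 in Tg(Dyrk1a) replicates 1, 3 and 5, and 9.49, 10.23 and 10.18 in wild type replicates 1, 2 and 3. The lowest choroid-rich array thus lay 1.79 log2 units above the highest choroid-poor array, and Ttr spanned 38.6-fold over all 10 arrays. These values chose the arrays and carry no test.

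Pearson's r between arrays, over the annotated transcript clusters, lay between 0.9965 and 0.9991, and their medians between 6.58 and 6.66. Dyrk1a checked the genotype labels, with log2 values of 11.62 to 11.68 on the 5 Tg(Dyrk1a) arrays and 11.14 to 11.28 on the 5 wild type arrays, and its difference between choroid-rich and choroid-poor arrays was -0.02 (adjusted p = 0.856). The number of arrays limits the precision of every value below.

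Choroid-rich and choroid-poor arrays were compared by limma with genotype as a covariate over all annotated transcript clusters. Besides Ttr, 3 of 23409 transcript clusters passed an adjusted p of 0.05 as higher (0.0128%) and 0 as lower. The 3 were Kcnj13, an inward rectifier potassium channel of the apical membrane of the choroid plexus epithelium, Slc13a4, a sodium-sulfate cotransporter, and Defb11, a member of the beta-defensin family. At an unadjusted p under 0.05, 978 were higher (4.18%) and 1495 lower (6.39%), and at an adjusted p of 0.1 the counts were 25 higher and 0 lower. The 3 higher calls became 0 with every row of the table tested and 21 with the arrays centred on their medians. The differences were one-sided in size. Beyond 1.5-fold there were 28 transcript clusters with a higher value in the choroid-rich arrays and 0 with a lower one. Of the 28, 21 were on the lists of choroid plexus genes, which held 57 of the 23409 tested. These lists were chosen with earlier results of these data known, so that this share is a description and no independent check.

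Kcnj13 differed most after Ttr. Its log2 value was 10.80 and 10.50 in Tg(Dyrk1a) replicates 2 and 4, against 8.94 and 11.09 in wild type replicates 4 and 5. The 3 choroid-poor Tg(Dyrk1a) arrays had 6.87, 7.20 and 7.25, and the 3 choroid-poor wild type arrays 7.05, 6.88 and 6.88. Thus all choroid-poor arrays sat within a narrow band, wild type replicate 4 stood between, and the other 3 choroid-rich arrays were far above. The log2 difference was 3.31 ± 0.305 (SE), or 9.91-fold (95% interval 2.64 to 3.97, adjusted p = 0.00415). It was 3.07 within wild type and 3.54 within Tg(Dyrk1a). Kcnj13 lies inside the interval of Gigyf2 in the RefSeq annotation, and Gigyf2 itself had a difference of -0.03 (adjusted p = 0.817).

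Slc13a4 had log2 values of 8.59 and 8.50 in Tg(Dyrk1a) replicates 2 and 4 and of 7.96 and 8.37 in wild type replicates 4 and 5, against 7.35 to 7.90 in the 6 choroid-poor arrays. The sets did not overlap, but wild type replicate 4 exceeded the highest choroid-poor array only narrowly. The log2 difference was 0.74 ± 0.091 (SE), or 1.67-fold, with an adjusted p of 0.0213. Defb11 was dim, with values of 4.62 to 4.91 on the choroid-rich and 4.25 to 4.43 on the choroid-poor arrays, and differed by 0.49 ± 0.0586 (SE; adjusted p = 0.0213). Of these 3 genes, only Kcnj13 stayed past the threshold whichever single array was left out. Its adjusted p was 0.0772 with every row of the table tested, 0.0927 under robust estimation with a variance trend, and 0.0541 with the replicate number as a block, so that its call too was lost there.

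The bases just before the start of these 3 genes are given here, to show what lies upstream of them. Ace, which was not called, is added as an example of a window with TAATCC. Only promoter entries of Ace that held these letters were kept. They come from the RefSeq promoter table (GRCm38.p6), are 100 bases long, read 5′ to 3′ along the gene, and end 1 base before its annotated start. Capitals mark the letters TAATCC, which OTX2 binds.

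Kcnj13 (chr1:87394730-87394829, minus strand): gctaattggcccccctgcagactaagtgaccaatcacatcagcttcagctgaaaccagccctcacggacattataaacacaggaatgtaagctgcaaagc
Slc13a4 (chr6:35308127-35308226, minus strand): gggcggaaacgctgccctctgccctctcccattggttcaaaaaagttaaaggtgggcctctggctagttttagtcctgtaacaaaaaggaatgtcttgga
Defb11 (chr8:21906433-21906532, minus strand): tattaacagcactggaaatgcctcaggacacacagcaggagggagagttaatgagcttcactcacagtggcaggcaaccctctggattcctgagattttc
Ace (chr11:105967848-105967947, plus strand): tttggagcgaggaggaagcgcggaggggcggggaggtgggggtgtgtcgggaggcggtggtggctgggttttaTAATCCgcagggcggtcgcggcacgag

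In the 250 bases upstream, TAATCC on either strand was present in 4 of 60 windows of the choroid plexus lists (6.67%), near its share of 6.25% among all 32851 windows. Those 60 windows belong to 46 of the 57 measured genes, since the table is not complete. Among the transcript clusters over 1.5-fold higher, 5 of 30 windows held it (16.7%). The forkhead letters GTAAACA were in 0 of the 60 windows against 3.17% of all, and in 4 of 37 windows of the motile cilia list (10.8%). The RFX X-box was in 0.244% of all windows and in none of these sets. The windows of Kcnj13, Slc13a4 and Defb11 printed above held none of the 3 motifs. In the Ace window, kept for holding TAATCC, its first base lay 27 bases before the start. Such matches describe letters in a short window and say nothing of binding.

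The choroid plexus genes were taken from 3 lists of transporters, of secreted proteins and receptors, and of epithelial identity genes, of which 57 were measured besides Ttr. Members and lists were chosen with earlier results of these data known. The shares of list members are therefore a description and no independent check. At an unadjusted p under 0.05, 44 of the 57 were higher in the choroid-rich arrays (77.2%, beside 4.18% of all transcript clusters) and 0 were lower. In 28 of the 57 every choroid-rich array lay above every choroid-poor array (49.1%, beside 0.884% of all). The median log2 difference of the 57 was 0.40, beside -0.00502 over all transcript clusters tested, and 48 of the 57 had a difference above 0 within wild type as well as within Tg(Dyrk1a). Only 2 of the 57 passed the adjusted threshold.

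**Figure D1:**
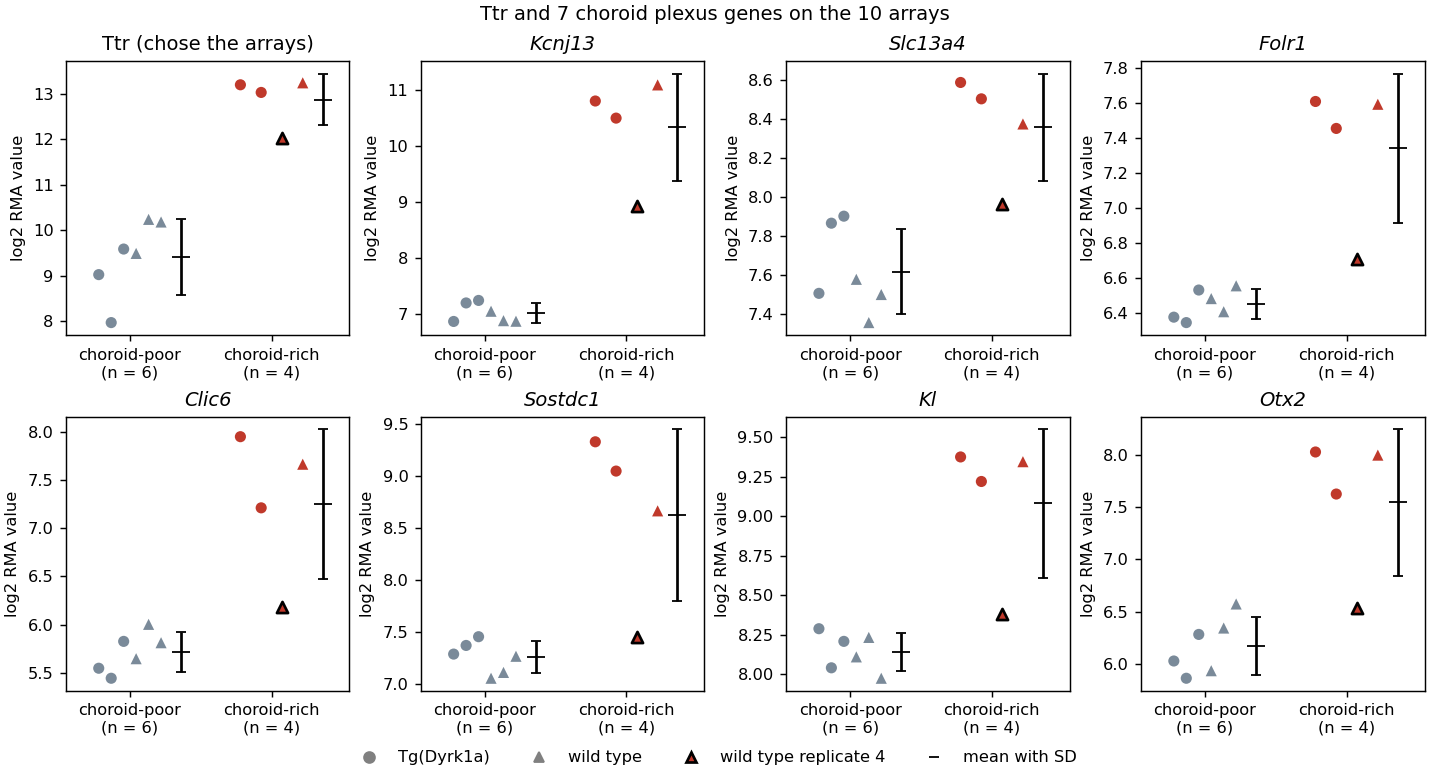
Log2 RMA values of Ttr and 7 choroid plexus genes on the 10 arrays. Circles are Tg(Dyrk1a) and triangles wild type, choroid-poor arrays are grey and choroid-rich red, the dash and bar give the mean with SD, and axes differ between panels. Wild type replicate 4, outlined in black, falls between the other choroid-rich arrays and the choroid-poor arrays for Kcnj13 (8.94), and near the top of the choroid-poor arrays for Sostdc1 (7.46) and Otx2 (6.53).

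Of the transporters, 17 of 21 were higher at an unadjusted p under 0.05 (81%) and 2 passed the adjusted threshold. Folr1, the folate receptor that carries folate into the cerebrospinal fluid, had log2 values of 7.61 and 7.45 in Tg(Dyrk1a) replicates 2 and 4, and of 6.71 and 7.59 on wild type replicates 4 and 5. The choroid-poor arrays ran from 6.34 to 6.55, so the sets did not overlap, and the difference was 0.89 ± 0.142 (SE), or 1.86-fold (adjusted p = 0.0714). Clic6, an intracellular chloride channel protein, had 7.95 and 7.21 in Tg(Dyrk1a) replicates 2 and 4 and 6.18 and 7.67 in wild type replicates 4 and 5, against 5.44 to 6.00 in the choroid-poor arrays. Its difference of 1.54 ± 0.266 (2.91-fold, adjusted p = 0.0932) was the largest after Kcnj13.

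The bicarbonate transporter Slc4a5 differed by 1.07 (adjusted p = 0.105), the glucose transporter Slc2a12 by 0.78 (0.105), the lipid transporter Abca4 by 0.66 (0.0932), the copper transporter Slc31a1 by 0.57 (0.105) and the carbonic anhydrase Car12 by 0.48 (0.105), all without overlap between the sets. Aqp1, the water channel of the apical membrane, differed by 0.47 (adjusted p = 0.174), and Kcne2, a potassium channel subunit, by 0.38 (0.278), and both had overlapping sets. The sodium-potassium-chloride cotransporter Slc12a2 had a difference of 0.09 ± 0.0532 (SE). Slc12a2 lay between 9.50 and 9.81 on all arrays, and Slc29a4, a transporter of monoamines, differed by 0.14 with overlapping sets. The iodide transporter Slc5a5 was the only transporter with a difference below 0, at -0.09 (adjusted p = 0.619).

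Of the secreted proteins and receptors, 14 of 17 measured were higher at an unadjusted p under 0.05 (82.4%) and 0 passed the adjusted threshold. Kl encodes klotho, the co-receptor of fibroblast growth factor 23, and had log2 values of 9.37 and 9.22 in Tg(Dyrk1a) replicates 2 and 4 and 8.38 and 9.34 in wild type replicates 4 and 5. The choroid-poor arrays ran from 7.98 to 8.29, and the difference was 0.94 ± 0.150 (SE), or 1.91-fold (adjusted p = 0.0714). Together with Ttr and Folr1, Kl was one of the markers named for the choroid plexus. Ttr chose the arrays, and Folr1 and Kl both separated the 2 sets.

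Sostdc1, a secreted inhibitor of BMP and Wnt signalling, had 9.33 and 9.05 in Tg(Dyrk1a) replicates 2 and 4, with 8.66 in wild type replicate 5. In wild type replicate 4 it was 7.46, level with the highest choroid-poor array, and the fitted difference was 1.36 ± 0.216 (SE; adjusted p = 0.0714). Ace, the angiotensin-converting enzyme, ran from 7.84 to 8.85 in the choroid-rich and from 7.21 to 7.62 in the choroid-poor arrays, a difference of 0.99 ± 0.153 (adjusted p = 0.0714). Ecrg4 (0.99), which encodes a secreted peptide precursor, the heparan sulfatase gene Sulf1 (0.88) and the collagen gene Col8a1 (0.71) had the same adjusted p of 0.0714 without overlap. The lipopolysaccharide-binding protein Lbp differed by 1.21 (adjusted p = 0.0932) and the coagulation factor F5 by 1.02 (0.0811).

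The growth factor Igf2 differed by 0.50 (adjusted p = 0.126) and its binding protein Igfbp2 by 0.40 (0.290), while the serotonin receptor Htr2c differed by 0.45 (0.250). Col9a3 (-0.08) and Col8a2 (-0.05) had small differences below 0.

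Of the epithelial identity genes, 13 of 19 measured were higher at an unadjusted p under 0.05 (68.4%) and 0 passed the adjusted threshold. Otx2 had log2 values of 8.03 and 7.62 in Tg(Dyrk1a) replicates 2 and 4, with 7.997 in wild type replicate 5, but 6.53 in wild type replicate 4, below the 6.57 of the choroid-poor wild type replicate 3. Its difference was 1.37 ± 0.256 (SE), or 2.59-fold (adjusted p = 0.108). Among claudins, the proteins of tight junctions, Cldn1 differed by 1.34 (adjusted p = 0.0932) and Cldn2 by 0.67 (0.126), both without overlap. Cldn3 had a difference of -0.09 (0.544).

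Tmem72, a membrane protein, differed by 1.16 (adjusted p = 0.126), Pon3, a lactonase, by 0.74 (0.108), Calml4, a calmodulin-like protein, by 0.66 (0.0932), and Rdh5, a retinol dehydrogenase, by 0.52 (0.143). Perp, a desmosomal protein, and Cab39l differed by 0.34 and 0.36 with narrow spreads. Krt8, a keratin of simple epithelia, Ezr, which links membrane and actin, and the kinase Stk39 had differences of 0.14 or less, and Ezr and Stk39 lay between 9.20 and 10.72 on all arrays.

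**Figure D2:**
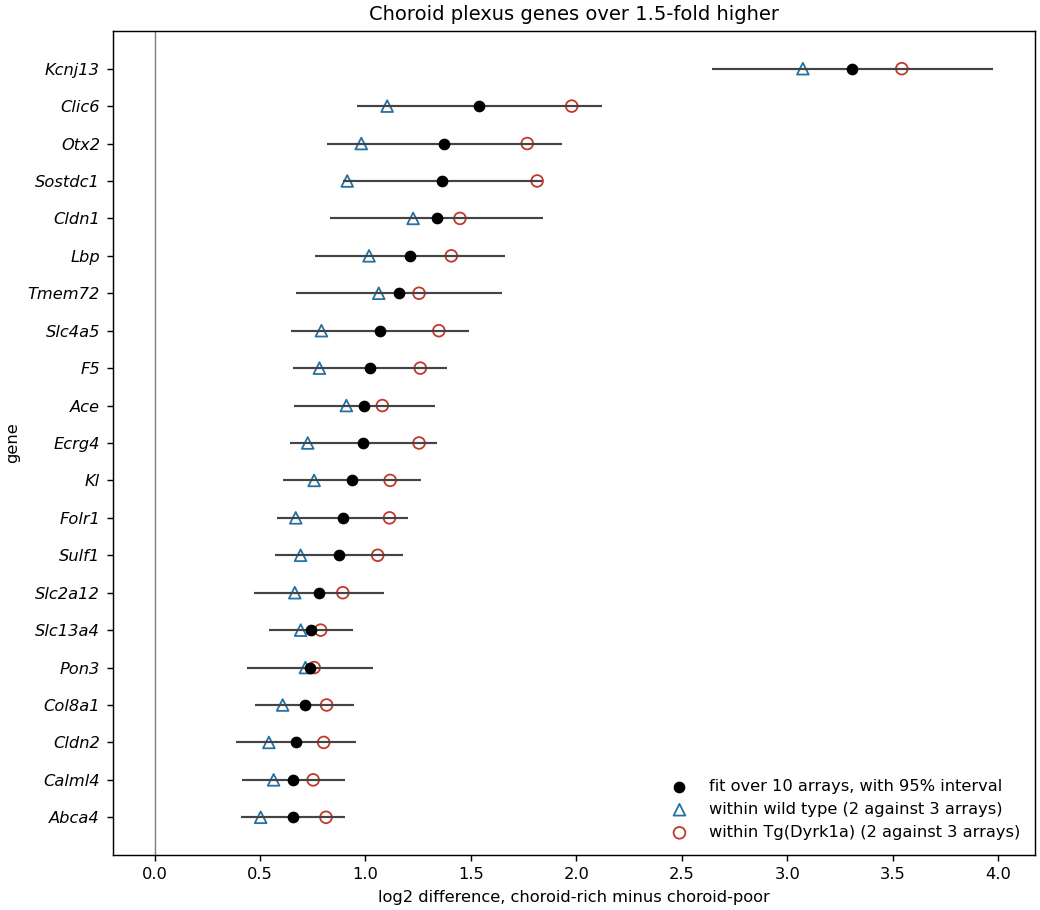
Log2 difference, choroid-rich minus choroid-poor, of the 21 choroid plexus genes over 1.5-fold higher. Filled points with bars are the limma estimate over 10 arrays with its 95% interval, triangles the difference within wild type and open circles within Tg(Dyrk1a), each 2 against 3 arrays. Each gene lies above 0 in both genotypes, which choosing the genes by the size of the estimate makes likely. The estimates run from 3.31 for Kcnj13 down to 0.66 for Abca4, and the wild type value is the smaller of the pair for all 21.

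Wild type replicate 4 was then set between the 2 means for single genes. For 30 genes of the 3 lists, those with a log2 difference over 0.5 between the other 3 choroid-rich arrays and the choroid-poor arrays (a limit set after the values were seen), the position of this array between the mean of the choroid-poor arrays and that of the other 3 was computed. These genes were selected for being high in the other 3 arrays, which by itself lowers the position of this array, so the values are a description with no test. The median position was 24.5% of the distance on the log2 scale, with a range of 8.39% to 50.7%, and 18.3% on the linear scale. Ttr itself stood at 69.9% on the log2 scale and 41.4% on the linear scale, but Ttr chose the arrays. Kcnj13 was at 50.7% and 21.8%, and Slc13a4, the highest of the 30 on the linear scale, at 33.0%. In 23 of the 30 genes this array nonetheless lay above all 6 choroid-poor arrays. The median over the 30 genes of the log2 value minus the choroid-poor mean was 1.08, 0.86 and 1.07 in Tg(Dyrk1a) replicates 2 and 4 and wild type replicate 5, and 0.25 in wild type replicate 4.

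**Figure D3:**
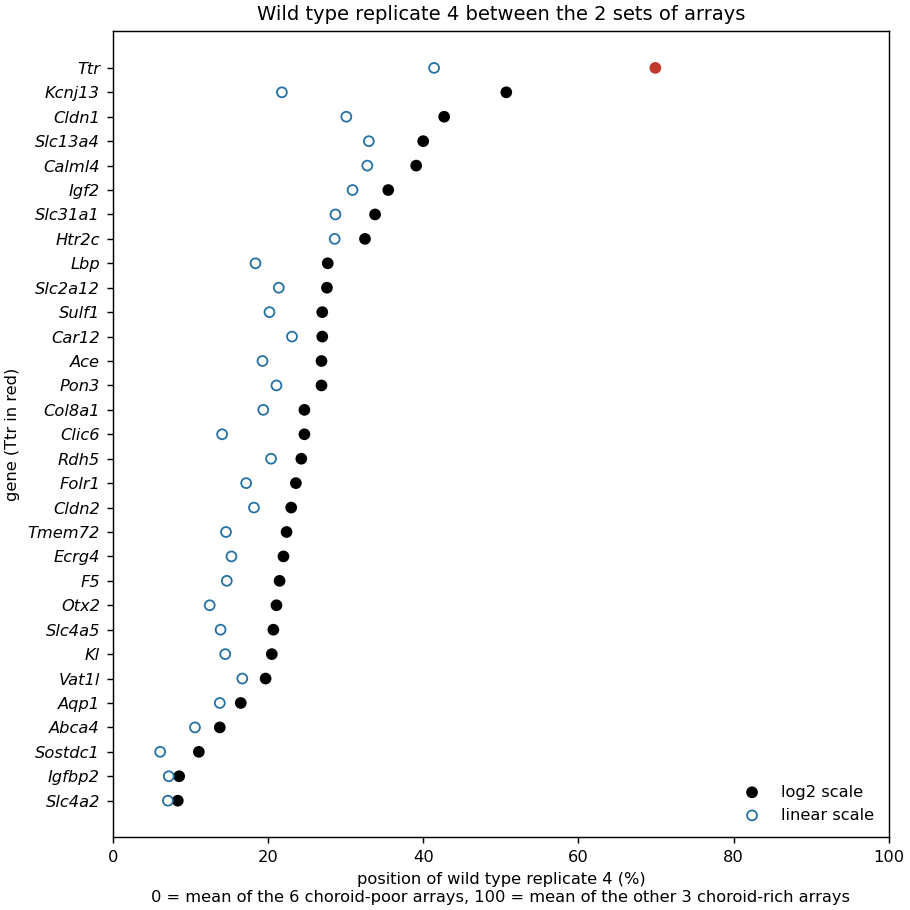
Position of wild type replicate 4 between the mean of the choroid-poor arrays (0%) and the mean of the other 3 choroid-rich arrays (100%), for Ttr and 30 choroid plexus genes, with filled points on the log2 scale and open points on the linear scale. Ttr, in red, is at 69.9% on the log2 scale and the 30 other genes between 8.39% and 50.7%.

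Without wild type replicate 4 the fit called 72 transcript clusters higher (0.308%) and 3 lower (0.0128%), and the 3 calls of the full set were all among the 72. The calls covered 32 of the 57 choroid plexus genes (56.1%), 1 motile cilia gene, 1 gene of the meningeal list and 38 transcript clusters on no list. Differences of choroid plexus genes grew by a median ratio of 1.24. This array had the lowest choroid plexus score of the choroid-rich arrays, so leaving it out by itself widens these differences and narrows their spread. The counts and adjusted p-values of this fit are thus a description and no separate support. Kcnj13 then differed by 3.78 ± 0.127 (SE; adjusted p = 1.88e-07), Clic6 by 1.93 (8.84e-05), Sostdc1 by 1.70 (1.98e-06), Ecrg4 by 1.24 (8.2e-07) and Folr1 by 1.11 (2.32e-06). The 3 called lower were Nxph3, a neurexophilin (-0.38, adjusted p = 0.0254), the keratin gene Krt90 (-0.21, 0.0424) and Tk1, thymidine kinase (-0.30, 0.0491). Another, brighter Tk1 transcript cluster was not among the calls.

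Among the choroid-poor arrays Ttr spanned 4.82-fold. Pearson's r with Ttr over these 6 arrays had a median of 0.0443 over the 57 genes, with 31 of them above 0 and a range of -0.877 to 0.906, beside a median of -0.0354 over all transcript clusters. It was -0.534 for Kcnj13. Over all 10 arrays the median r of the 57 genes was 0.813, a value that the split itself sets in large part. These coefficients are over 6 or 10 arrays that Ttr itself divided, spread widely from gene to gene, and carry no test.

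Genes of neighbouring cell types were examined to see what else came with the choroid plexus transcripts. For each list a score was taken as the mean, over its genes, of the log2 value minus the gene's mean over the 10 arrays. Over the 57 choroid plexus genes the score was 0.512 in Tg(Dyrk1a) replicate 2, 0.496 in wild type replicate 5, 0.347 in Tg(Dyrk1a) replicate 4 and -0.046 in wild type replicate 4, and lay between -0.241 and -0.188 in the choroid-poor arrays. Of the other 16 lists, only that of red blood cells, with 2 measured genes, had sets that did not overlap, at -0.21 to -0.106 in the choroid-rich and -0.1 to 0.664 in the choroid-poor arrays.

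**Figure D4:**
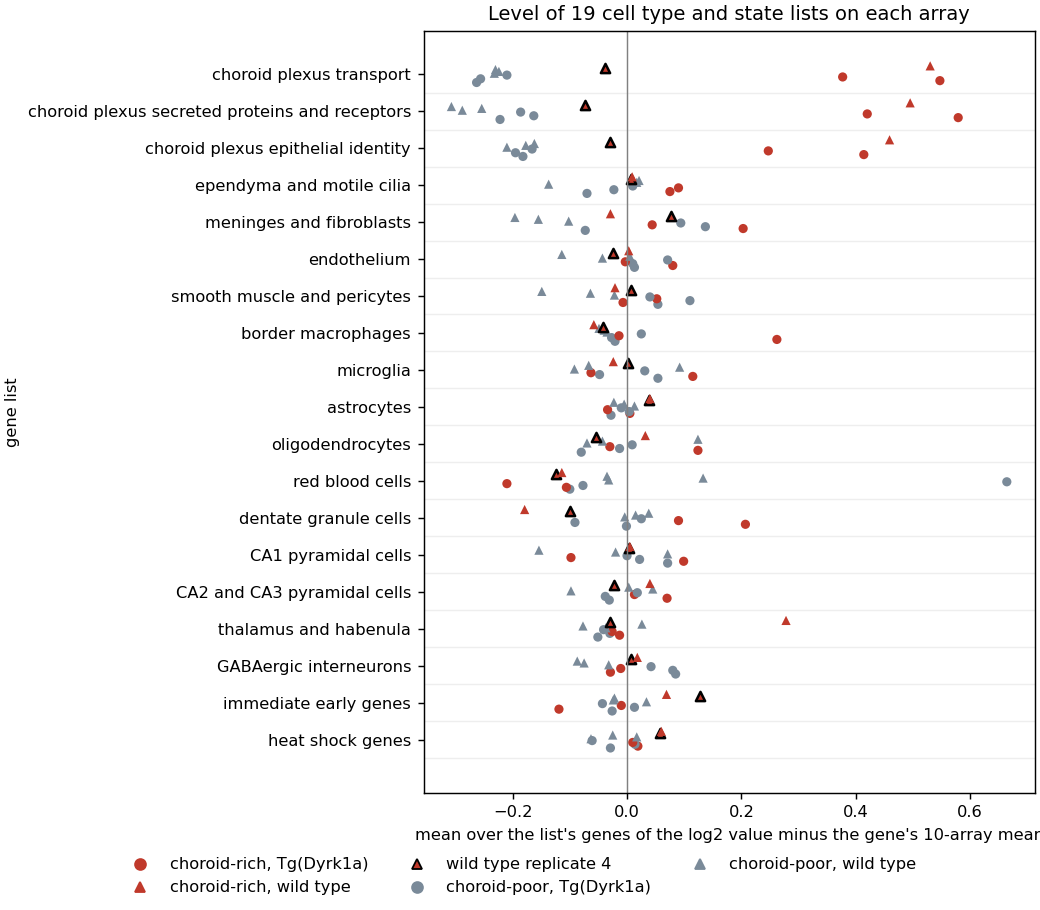
Score of 19 gene lists on each array, the mean over a list's genes of the log2 value minus the gene's 10-array mean. Circles are Tg(Dyrk1a), triangles wild type, red choroid-rich, grey choroid-poor, and wild type replicate 4 has a black outline. The 3 choroid plexus lists at the top part the 2 sets of arrays, while the thalamus list stands apart in wild type replicate 5 (0.278). The border macrophage list stands apart in Tg(Dyrk1a) replicate 2 (0.262), where Cd74, H2-Aa and H2-Ab1 were furthest above the other arrays.

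Of 41 measured genes of ependyma and motile cilia, 12 were higher at an unadjusted p under 0.05 (29.3%, beside 4.18% of all) and 0 were lower (beside 6.39%). In 3 of the 41 every choroid-rich array lay above every choroid-poor array, beside 0.884% of all. The median log2 difference of the list was 0.05. The largest was 0.37 ± 0.0905 (SE; adjusted p = 0.250) for Rsph4a, a radial spoke protein, with 6.68 to 6.83 in the choroid-rich and 6.01 to 6.58 in the choroid-poor arrays. Dnah6, a dynein heavy chain, differed by 0.23 and Spag16, a central apparatus protein, by 0.15. Of the 41 genes 30 had a difference above 0 and 11 below. Foxj1 (0.06), Tmem212 (0.04), Rsph1 (0.02) and Ccdc153 (-0.02) had small differences, and Drc1 had the lowest (-0.12). Drc7, a subunit of the dynein regulatory complex that was on no list, had a larger difference of 0.67 ± 0.104 (SE), or 1.60-fold (adjusted p = 0.0714). It measured 7.18 and 6.85 in Tg(Dyrk1a) replicates 2 and 4, 6.45 and 6.91 on wild type replicates 4 and 5, and at most 6.31 in the choroid-poor arrays.

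Of 25 genes of meninges and fibroblasts, 6 were higher at an unadjusted p under 0.05 (24%, beside 4.18% of all) and 0 lower (beside 6.39%), with a median of 0.08. Pcolce, an enhancer of procollagen processing, differed by 0.62 ± 0.0991 (SE), or 1.54-fold (adjusted p = 0.0714). Its values were 8.89 and 8.51 in Tg(Dyrk1a) replicates 2 and 4, 8.04 and 8.40 on wild type replicates 4 and 5, and 7.62 to 8.03 in the choroid-poor arrays. The amino acid transporter Slc6a20a (0.28) and the complement inhibitor Serping1 (0.33) overlapped between the sets. Of the 25 genes 17 had a difference above 0 and 8 below. The collagen genes Col1a1 (-0.06), Col1a2 (-0.07) and Col3a1 (-0.03) were among those below. Decorin, Dcn, differed by 0.76 within wild type and by 0.06 within Tg(Dyrk1a).

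Of 20 endothelial genes 3 were higher at an unadjusted p under 0.05 (15%, beside 4.18% of all), with Emcn at 0.18, Slco1a4 at 0.16 and Ocln at 0.11, and the list median was 0.01. Smooth muscle and pericytes (16 measured), border macrophages (14) and microglia (15) had 0 genes past an unadjusted p of 0.05 in either direction. The median differences were 0.02, 0.01 and 0.03. Cd74 and H2-Aa, which encode the invariant chain and a chain of MHC class II, measured 7.23 and 6.77 in Tg(Dyrk1a) replicate 2, against at most 6.57 and 5.65 on the other 9 arrays. They were thus raised on 1 choroid-rich array and not on the other 3, as was H2-Ab1 (7.21 there, at most 6.24 elsewhere). On that array Mrc1 (5.35), Cd163 (5.29), Pf4 (5.50) and Folr2 (5.35) lay within the range of the other 9. Lyve1, Ms4a7, Stab1 and H2-Eb1 were highest there, each by a small margin.

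Of the neuronal and glial lists, dentate granule cells (16 measured), CA1 pyramidal cells (7) and oligodendrocytes (16) had 0 genes past an unadjusted p of 0.05. Astrocytes and CA2 and CA3 pyramidal cells had 1 higher each (6.25% and 6.67%, beside 4.18% of all), Sox9 at 0.13 and Coch, cochlin, at 0.17. The dentate list had a median of 0.00472, made of -0.19 within wild type and 0.16 within Tg(Dyrk1a). For interneurons the median was -0.01, with 1 gene higher (Adarb2, 0.14) and 1 lower (Dlx2, -0.11). Each was 4.55% of that list, beside 4.18% higher and 6.39% lower of all. Immediate early genes had a median of 0.03 with 1 of 29 higher (Btg2, 0.07), or 3.45% beside 4.18% of all. Of 9 heat shock genes 3 were higher at an unadjusted p under 0.05 (33.3%, beside 4.18% of all), with Hspa1a at 0.19, Hspb1 at 0.18 and Dnajb1 at 0.14, none with an adjusted p under 0.298. The median of this list was 0.02, with 6 genes above 0 and 3 below.

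The thalamus and habenula list, whose genes mark the tissue that lies next to the hippocampus across the ventricle, had a median of 0.07. Its score was 0.278 in wild type replicate 5 and between -0.077 and 0.026 on the other 9 arrays. On that array 15 of the 26 genes had their highest value of the 10 and 1, Gpr151, its lowest. Prkcd measured 9.68 there and at most 9.04 elsewhere, and Tcf7l2 8.71 and at most 8.03. Of the 26 genes 2 were higher at an unadjusted p under 0.05 (7.69%, beside 4.18% of all), Zic1 and Tac2, and 1 was lower (3.85%, beside 6.39%). The gene that was lower, Gbx2, differed by -0.18 (adjusted p = 0.298) without overlap and measured 6.54 in wild type replicate 5. Zic1, a transcription factor gene on this list, differed by 0.66 (adjusted p = 0.414), with 9.11, 8.60, 8.36 and 8.01 on the choroid-rich arrays and 7.39 to 8.87 on the choroid-poor ones. With the thalamus score as a further covariate, chosen after the data were seen, Kcnj13 alone stayed past the threshold, and its part in the other differences was not tested otherwise. Red blood cell genes, of which 2 were measured, had Slc4a1 at -0.15 (unadjusted p = 0.00372), and Alas2, the enzyme of heme synthesis in red cells, was at 8.43 in Tg(Dyrk1a) replicate 5 and at 6.85 to 7.45 on the other arrays.

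Beyond the lists, 7 of the 28 transcript clusters over 1.5-fold higher were not choroid plexus list genes. These were Drc7, Zic1 and Pcolce, described above, and Cd59a, an inhibitor of complement (0.63, adjusted p = 0.290), Steap2, a metalloreductase (0.61, 0.0714), Pla2g5, a secreted phospholipase (0.60, 0.170), and Gpx8, a peroxidase of the endoplasmic reticulum (0.60, 0.108). They are named here after their values were seen. A second transcript cluster assigned to Steap2, which was dim, had a difference of 0.02.

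In the other direction 280 transcript clusters were lower without overlap (1.2%), more than the 207 that were higher (0.884%), yet all were small. Predicted genes and transcript clusters with several symbols were not named. Among the rest, the 5 with the smallest p were Tead4, a transcription factor of the Hippo pathway (-0.17, adjusted p = 0.105), Lmod1, an actin-binding protein of smooth muscle (-0.23, 0.108), Tk1 (-0.26, 0.108), Nxph3 (-0.32, 0.126) and Tekt5, a tektin (-0.25, 0.134). Nxph3, the largest of them, measured 7.16, 7.22, 7.44 and 7.27 on the choroid-rich and 7.50 to 7.73 on the choroid-poor arrays. None reached 1.5-fold.

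The difference between choroid-rich and choroid-poor arrays was then compared between genotypes. By the interaction term in limma 0 transcript clusters passed an adjusted p of 0.05, the smallest being 0.142, and 1801 had an unadjusted p under 0.05. Each genotype held 2 against 3 arrays, and wild type replicate 4 was 1 of the 2 in wild type, so that a difference between genotypes and the lower choroid plexus score of that array cannot be told apart. The larger values within Tg(Dyrk1a), such as 1.98 against 1.10 for Clic6 and 1.81 against 0.91 for Sostdc1, were therefore not called different. Wfikkn2, a gene of the secreted protein list with an interaction adjusted p of 0.142, differed by -0.20 within wild type and 0.39 within Tg(Dyrk1a). It was low in both choroid-rich wild type arrays, at 5.87 in replicate 4 and 5.83 in replicate 5, against 5.96 to 6.09 in the choroid-poor arrays. The cause was not tested.

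The split made little change to the comparison of genotypes. With the split in the model, Tg(Dyrk1a) over wild type gave Dyrk1a as higher, by 0.47 ± 0.0342 (SE; adjusted p = 0.00033), and Rfx5, a transcription factor of MHC class II genes, as lower, by -0.30 ± 0.0365 (SE; adjusted p = 0.0419). Without it the same 2 genes were called, with adjusted p-values of 0.000138 and 0.0282. The 2 calls fell to 1 with quantile normalisation, median centring, every row tested, robust estimation with a variance trend or the thalamus score, and to 0 with the replicate block. Those with an unadjusted p under 0.05 numbered 1396 with the split and 1154 without. The design was balanced for the split, with 2 choroid-rich arrays in each genotype.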

How the data were processed

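Hippocampal RNA of 10 mice was measured on Affymetrix Mouse Gene 1.0 ST arrays. The authors deposited log2 values per transcript cluster after RMA (background correction, quantile normalisation and summary), per the labels with limma and mm10, and which arrays were normalised together is not given in the sources used here. Of 35556 rows, 23410 had a gene annotation, 21789 of them with 1 symbol and 1621 with several, which were tested but not named. In all, 21698 were matched to RefSeq by gene ID. For the lists and for Dyrk1a, Folr1 and Kl, a gene with several transcript clusters was represented by the one with the highest mean. Genes named by the fit were taken at the transcript cluster that placed them.

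Arrays were split by Ttr at 11.5 and compared with lmFit and eBayes of limma (version 3.58.1, under R 4.3.3) with genotype as covariate, Benjamini-Hochberg adjustment over all annotated transcript clusters, and a threshold of 0.05. Ttr was left out of all counts. Levels of different probes are not compared. Tests are two-sided. p-values measure the spread between the arrays of separate mice, and describe association with Ttr on the same arrays. The rule for named genes took Dyrk1a, Folr1 and Kl, the called genes and then the smallest p up to 5 in each direction, and the 3 members of each list with the smallest p (6 for choroid plexus lists). Predicted genes were left out of those named by the fit. Other genes are given as list members. Of 371 list genes, 346 were measured. Members and lists were chosen with earlier results of these data known. Alternatives were normalisation, filters, variance models, covariates, the threshold and leaving out each array, and the fit was tested on simulated data. Arrays of the same replicate number in the 2 genotypes did not deviate together (r of -0.285 to 0.276), so that the numbers were not taken as pairs.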

Additional observations from a re-analysis of the deposited data

Results flagged for a closer look

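A value was looked at again where the highest or lowest array of a set stood apart from the others by Dixon's 95% criterion. This was applied to 184 sets of values, the choroid-rich and the choroid-poor arrays of each named gene and list score. Of these 18 stood apart, where chance gives about 1 in 20 for independent sets. The genes were named from these same data and some scores include them, so the sets are not independent and this count is no test.

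In the choroid-rich arrays 5 choroid plexus genes were low in wild type replicate 4, with log2 values of 6.60 for Col8a1, 6.71 for Folr1, 8.38 for Kl, 6.32 for Abca4 and 7.02 for Ecrg4. In Tg(Dyrk1a) replicate 2, Cd74 (7.23) and the border macrophage score (0.262), which includes Cd74, were high. In wild type replicate 5 the thalamus and habenula score (0.278) was high.

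In the choroid-poor arrays Tg(Dyrk1a) replicate 5 was high in Alas2 (8.43), in the red blood cell score (0.664) and in Cab39l (8.85). Tg(Dyrk1a) replicate 3 was low in Olig2 (8.77) and in the dentate granule cell score (-0.091) and high in Dnajb1 (8.75), and Tg(Dyrk1a) replicate 1 was high in Tk1 (5.93). Wild type replicate 3 was low in Ace (7.21) and high in Zic1 (8.87), and wild type replicate 1 was high in Gsg1l (8.35).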

How the results depend on the processing

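The count of transcript clusters called higher in choroid-rich arrays (3) became 21 with arrays centred on their medians, 0 with all rows tested, 0 with the replicate number as a block, 49 with Ttr as a continuous covariate, and, both chosen after seeing the data, 81 with wild type replicate 4 counted as choroid-poor and 1 with the thalamus score as covariate. The count called lower (0) became 3 with continuous Ttr and 5 with wild type replicate 4 as choroid-poor. Leaving out 1 array gave 1 to 72 higher and 0 to 3 lower. The 72 and the 3 came without wild type replicate 4, and the count fell to 1 without each of Tg(Dyrk1a) replicates 2, 3, 4 and 5 and wild type replicates 1, 2 and 5. Genotype calls (2) were 1 with quantile normalisation, median centring, all rows, robust estimation with a variance trend or the thalamus score, 0 with the replicate block, and 1 to 2 without 1 array. Interaction calls (0) were 1 with the replicate block and 0 to 4 without 1 array, with 4 without Tg(Dyrk1a) replicate 4 and 3 without wild type replicate 5. Kcnj13 had an adjusted p of 0.0772 with all rows, 0.0927 with the variance trend and 0.0541 with the block, where its difference was 3.88. Slc13a4 and Defb11 lost their calls under all rows, the block, the thalamus score and all but 2 of the 10 leave-one-out fits each, and Slc13a4 also without the genotype covariate (0.0845). Trpc6 turned to 0.0176 with continuous Ttr and ranged from -0.12 to 0.00234 (without wild type replicate 5) when 1 array was left out, Pdgfrb to -0.00324 and P2ry12 to -0.000666 with wild type replicate 4 as choroid-poor, and Tdo2 (-0.00947 to 0.15) and Wfs1 (-0.00688 to 0.15) were below 0 without Tg(Dyrk1a) replicate 2, none of them called. The 73 named genes otherwise kept their direction, and a threshold of 12 moved no array. The cause of these changes was not tested.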
